A study of Mus musculus with 18 samples.

Results

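The complement and coagulation factors made by the liver were followed in the offspring of mice fed a high protein (HP) diet in pregnancy or in lactation. The set was a list of 39 genes, 16 of the complement system and 23 of blood coagulation and its control, matched to the array by gene symbol and each measured on the probe set with the highest mean signal. Of these 39, 36 were measured, 14 complement and 22 coagulation genes, among 11018 genes tested. The complement component C3 and the carboxypeptidase gene Cpb2 had no probe set with a single gene symbol, C4b was named only on a probe set shared with C4a, and these 3 genes have no value here.

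The animals were offspring of the outbred mouse line DUK, bred from several outbred and inbred lines, and total RNA of whole liver was taken on postnatal days 21 and 150. In the HP pregnancy group (HPP) dams ate the 40% protein diet in pregnancy and the control diet in lactation. The HP lactation group (HPL) had the control diet in pregnancy and the HP diet in lactation. The control group (C) ate the 20% protein diet in both periods, and the diets had the same energy content. Each of the 6 groups of diet and day had 3 arrays, each hybridised with RNA pooled from several livers. The labels disagree on the size of a pool, with 3 animals in the sample descriptions, 4 on day 21 and 3 to 4 on day 150 in the extraction notes, and 4 to 5 animals of different litters combined to 3 pools in the study design. Some animals may therefore have entered more than 1 pool, and the p-values below describe the spread between pools. The sex of the animals was not given in the labels.

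Complement is a cascade of plasma proteins that marks microbes and damaged cells. The lectin arm (Mbl1, Mbl2, Masp1, Masp2) recognises sugars, C2 and factor B (Cfb) are the proteases of the convertases, and Hc (the mouse gene for C5) together with C6, C7, C8 and C9 forms the membrane attack complex. Coagulation is a cascade of proteases, most of them secreted by hepatocytes, that ends with thrombin (F2) cutting fibrinogen into fibrin. Protein C, protein S and several serpins hold it in check, and plasmin from plasminogen (Plg) dissolves the clot. Hepatocytes are the main source of nearly all of these proteins. The arrays measured transcripts in whole liver and not the secreted proteins.

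The deposited values are signals on a linear scale that the authors set to the same trimmed mean on every array. All 8 measured hepatocyte markers, among them Alb and Apoa1, read at least 22119 on every array. Arrays of 1 group correlated at a median r of 0.976 over genes, arrays of different diets on 1 day at 0.973 and arrays of different days at 0.942. A pair of arrays stood apart in Xist, which read 7343 on control day 21 replicate 2 and 11644 on HP lactation day 150 replicate 4 and at most 93 on the other 16, while the Y-linked Eif2s3y read 1431 to 2917 on all 18. Calls of members named below that change without those arrays are given with both values. The 3'/5' signal ratio of the Gapdh control probes, a measure of RNA integrity and labelling, was 1.30 to 1.80 on the day 150 arrays and 0.821 to 0.993 on the day 21 arrays. The same ratio of the actin control probes was 4.06 to 6.50 on the day 150 arrays and 1.96 to 3.15 on the day 21 arrays. The 99th percentile of signal averaged 16339 ± 697 in HP pregnancy, 15882 ± 1358 in HP lactation and 18510 ± 1009 in control livers of day 21 (SD, n = 3 each).

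Signals of different probe sets are not amounts that can be set against each other, but the members lay at the bright end of the array. Among the 36, 30 were among the 10% of genes with the highest mean signal, 11 complement and 19 coagulation genes. The median standard deviation between arrays of 1 group was 0.18 log2 units for the members, against 0.23 for all genes tested and 0.16 for that brightest 10%. Among members it was lowest for F7 at 0.07 and highest for C9 at 0.35.

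**Figure D1:**
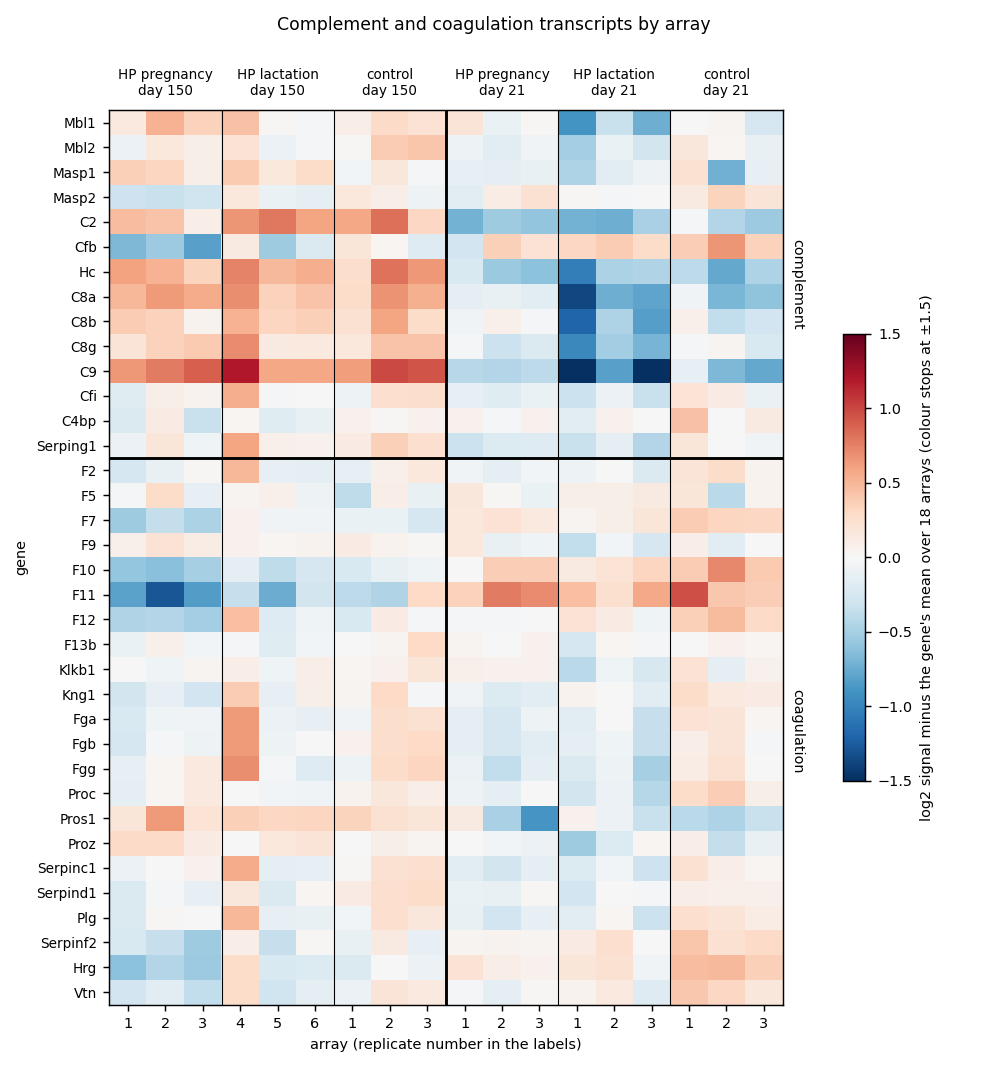
Signal of each of the 36 measured members (rows, complement above coagulation) on each of the 18 arrays (columns, grouped by diet and day), as log2 signal minus the gene's mean over all arrays. Hc, C8a and C9 are red on every day 150 array and blue on every day 21 array, with their lowest group means in HP lactation livers of day 21, while the group means of F7, F10, F11 and Hrg are above the gene's mean on day 21 and below it on day 150 in all 3 diets.

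Age gave the largest changes. Between day 150 and day 21, 5 complement genes rose and 2 fell in HP pregnancy livers, 10 rose and 1 fell in HP lactation livers, and 5 rose and 0 fell in control livers, of 14 measured (limma, Benjamini-Hochberg adjusted p under 0.05 over all genes, two-sided). Of the 22 coagulation genes, 1 rose and 6 fell in HP pregnancy, 0 rose and 2 fell in HP lactation and 1 rose and 5 fell in control livers. The share of all genes called was 12.1% higher and 11.5% lower in HP pregnancy, 14.1% higher and 11.6% lower in HP lactation and 9.7% higher and 8.08% lower in control livers. The median complement change was 0.28, 0.68 and 0.26 log2 units in HP pregnancy, HP lactation and control livers, and the median coagulation change was -0.05, 0.16 and -0.06, against 0.02, 0.03 and 0.02 over all genes.

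Hc, C8a, C2 and C9 rose in all 3 diets and F10 and F11 fell in all 3. No member rose in one diet and fell in another. In 17 of the 36, Mbl2, C4bp and 15 coagulation genes, no change with age passed the threshold in any diet. The Gapdh 3'/5' ratio separated the days on every array, so age and RNA quality cannot be told apart in these data. With that ratio as a covariate no member passed in any of the 3 age comparisons. A covariate so close to the day leaves little power, so this loss of calls does not show whether the changes remain. In control livers F7, F10, F12 and Hrg then had larger falls (-0.54, -0.65, -0.70 and -0.77) and F11 a smaller one (-0.48). Genes called higher there had smaller rises, such as 0.87 for C9 and 0.65 for Hc.

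**Figure D2:**
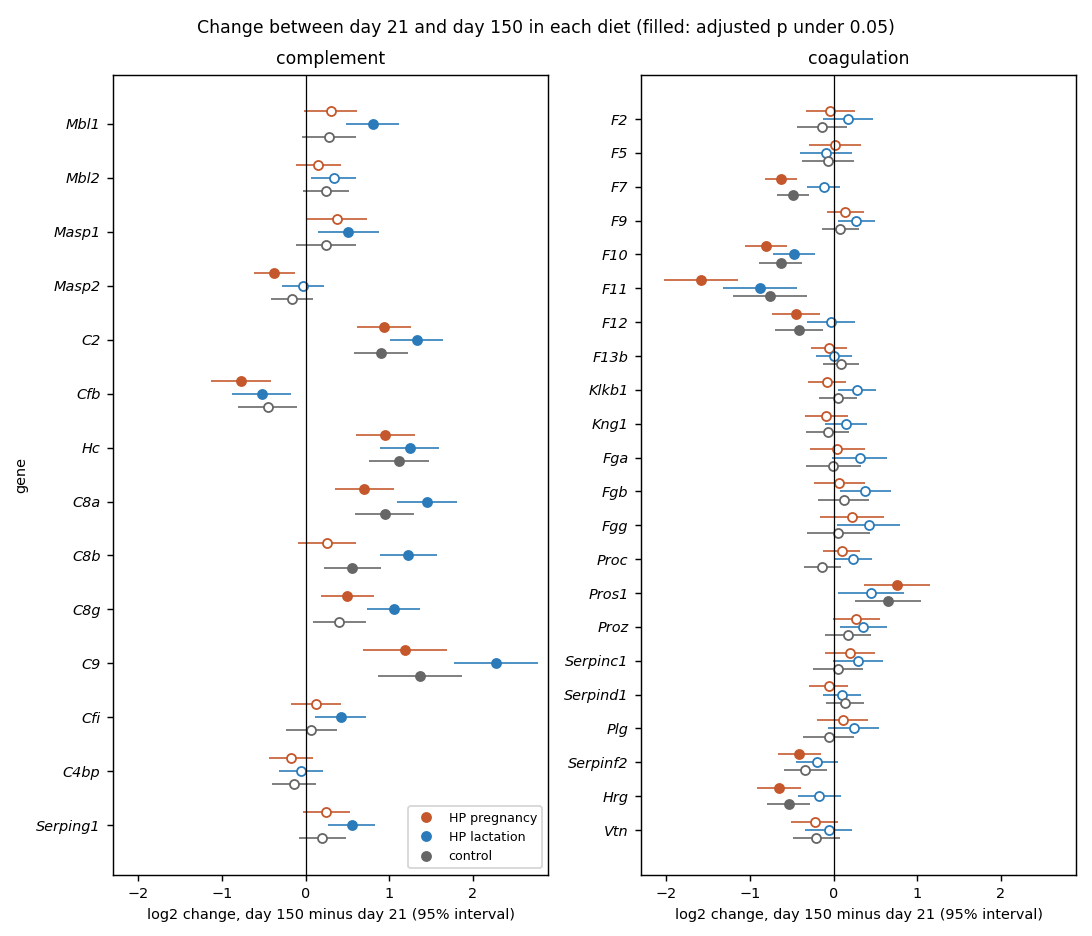
Change in log2 signal, day 150 minus day 21, of each complement (left) and coagulation (right) member in the 3 diets, with 95% confidence intervals from limma and filled points where the adjusted p was under 0.05. C9 reached 2.27 in HP lactation livers and F11 -1.58 in HP pregnancy livers, the ends of the range.

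The terminal complement genes encode the proteins that assemble into the membrane pore, and of the 5 members of this kind 4 rose in HP pregnancy, 5 in HP lactation and 4 in control livers. C9, the pore-forming subunit, read 31234, 33991 and 36768 in HP pregnancy livers, 45474, 29744 and 29641 in HP lactation livers and 30556, 39232 and 38227 in control livers on day 150. On day 21 it read 14870, 14621 and 15038 in HP pregnancy livers, 4622, 11275 and 6861 in HP lactation livers and 18247, 12472 and 11673 in control livers. Every day 150 array was above every day 21 array. The change was 1.19 ± 0.24, 2.27 ± 0.24 and 1.37 ± 0.24 log2 units (± SE) in HP pregnancy, HP lactation and control livers, which is 2.29-, 4.82- and 2.58-fold (limma adjusted p 0.0016, 2.24e-06 and 0.000742).

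C8 is a complex of 3 chains, of which the alpha and beta chains come from neighbouring genes on chromosome 4 (C8a at chr4:104815679-104876487 and C8b at chr4:104766317-104804548, GRCm38.p6) and the gamma chain, a lipocalin, from C8g on chromosome 2. C8a read 25707, 28244 and 26736 in HP pregnancy livers, 29337, 23030 and 24385 in HP lactation livers and 22035, 28899 and 26276 in control livers on day 150, and 16491, 16753 and 16273 in HP pregnancy livers, 7039, 10892 and 10496 in HP lactation livers and 17539, 11249 and 11923 in control livers on day 21. For C8b the day 150 signals were 8686, 8433 and 6891 in HP pregnancy livers, 9588, 8303 and 8541 in HP lactation livers and 7787, 10014 and 8059 in control livers, and the day 21 signals were 6432, 7000 and 6586 in HP pregnancy livers, 2907, 4837 and 3756 in HP lactation livers and 7035, 5141 and 5462 in control livers. C8g gave 25296, 28276 and 29213 in HP pregnancy livers, 36176, 24268 and 24454 in HP lactation livers and 24830, 29853 and 29719 in control livers on day 150, and 21981, 17737 and 19118 in HP pregnancy livers, 11307, 15472 and 13706 in HP lactation livers and 21988, 22865 and 18993 in control livers on day 21. In all 3 genes HP lactation replicate 1 was the lowest of the day 21 arrays, and HP lactation arrays of day 150 were all above those of day 21. C8a rose in each diet, by 0.70, 1.45 and 0.94 log2 units (limma adjusted p 0.00579, 7.1e-06 and 0.000945). C8b rose by 1.23 ± 0.16 in HP lactation and 0.56 ± 0.16 in control livers (limma adjusted p 2.83e-05 and 0.024). The control call of C8b was lost without the arrays with Xist signal (0.47, limma adjusted p 0.1), and its change of 0.26 in HP pregnancy livers did not pass (adjusted p 0.276). C8g rose by 0.50 in HP pregnancy and 1.05 in HP lactation livers (limma adjusted p 0.0233 and 6.52e-05), while its change of 0.40 in control livers did not pass (adjusted p 0.0742).

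Hc, the source of the inflammatory fragment C5a and of the first piece of the pore, read 11124, 10482 and 9189 in HP pregnancy livers, 12214, 10265 and 10639 in HP lactation livers and 8748, 12869 and 11495 in control livers on day 150. Its day 21 signals were 6227, 4979 and 4778 in HP pregnancy livers, 3568, 5275 and 5359 in HP lactation livers and 5555, 4308 and 5310 in control livers. The days did not overlap in any diet, and the changes were 0.95 ± 0.17, 1.24 ± 0.17 and 1.12 ± 0.17 log2 units in HP pregnancy, HP lactation and control livers (limma adjusted p 0.000594, 3.73e-05 and 0.000203). C6, a component of the same complex that was not on the member list, had the largest change of the 19 further complement genes tested: its mean signal was 1837 on day 150 against 175 on day 21 in HP pregnancy, 2381 against 127 in HP lactation and 2410 against 152 in control livers. That is a log2 change of 3.39, 4.23 and 3.99 (limma adjusted p 2.95e-08, 8.02e-10 and 4.41e-09).

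**Figure D3:**
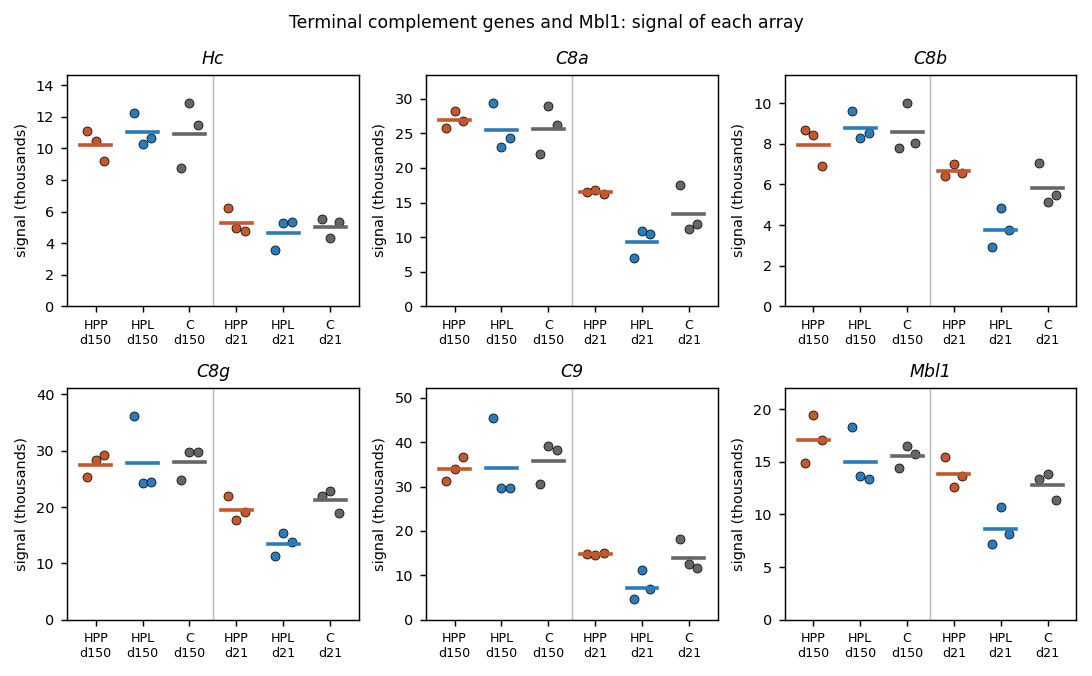
Signal of each array, on axes that start at 0, for terminal complement genes and Mbl1 by diet and day, with the mean of each group as a bar. C9 in HP lactation livers of day 21 lies at 4622, 11275 and 6861, and the same diet on day 150 at 45474, 29744 and 29641.

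C2 and Cfb sit side by side on chromosome 17 and encode the proteases of the classical and lectin convertase and of the alternative convertase. In HP pregnancy and HP lactation livers C2 rose and Cfb fell with age. C2 read 2413, 2367 and 1879 in HP pregnancy livers, 2780, 3047 and 2643 in HP lactation livers and 2620, 3108 and 2177 in control livers on day 150, and 1077, 1212 and 1168 in HP pregnancy livers, 1072, 1056 and 1256 in HP lactation livers and 1731, 1300 and 1207 in control livers on day 21. Its changes were 0.94 ± 0.15, 1.33 ± 0.15 and 0.90 ± 0.15 log2 units in HP pregnancy, HP lactation and control livers (limma adjusted p 0.000286, 6.12e-06 and 0.000579), and the other 2 C2 probe sets rose too. Cfb read 3671, 4009 and 3314 in HP pregnancy livers, 6398, 4053 and 5037 in HP lactation livers and 6618, 5967 and 5125 in control livers on day 150 and, on day 21, 4784, 7504 and 6810 in HP pregnancy livers, 7228, 7636 and 7079 in HP lactation livers and 7558, 9276 and 7423 in control livers. Cfb fell by 0.78 log2 units in HP pregnancy and by 0.53 in HP lactation livers (limma adjusted p 0.00303 and 0.029). In control livers its change was -0.45 (adjusted p 0.0731).

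In the lectin arm Mbl1, a mannose-binding lectin, passed the threshold in HP lactation livers. It read 14928, 19417 and 17117 in HP pregnancy livers, 18339, 13680 and 13373 in HP lactation livers and 14455, 16491 and 15714 in control livers on day 150, and 15433, 12635 and 13655 in HP pregnancy livers, 7228, 10746 and 8146 in HP lactation livers and 13405, 13847 and 11330 in control livers on day 21. The changes were 0.30 ± 0.15, 0.80 ± 0.15 and 0.28 ± 0.15 log2 units in HP pregnancy, HP lactation and control livers (limma adjusted p 0.166, 0.000879 and 0.228). Masp1, a protease bound to the lectins, gave 0.51 in HP lactation livers (limma adjusted p 0.0358), but its other 3 probe sets above the filter gave -0.14, -0.08 and -0.99, so the direction for this gene depends on the probe set. Masp2, the protease that cuts C4 and C2, fell by 0.37 in HP pregnancy livers (limma adjusted p 0.0279), a call kept in 1 of 6 fits that leave out 1 array (without day 21 replicate 1, adjusted p up to 0.148 in the others) and lost with arrays scaled to an equal 75th percentile (-0.30, limma adjusted p 0.114).

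Among the regulators, Serping1 (C1 inhibitor, which also blocks kallikrein and factor XII) rose by 0.55 ± 0.13 log2 units in HP lactation livers, and Cfi (factor I, which cuts C3b and C4b) by 0.42 ± 0.14 (limma adjusted p 0.00564 and 0.0386). Serping1 read 29928, 20826 and 20741 in HP lactation livers on day 150, against 15707, 17917 and 14606 in HP lactation livers on day 21. Cfi read 32203, 21518 and 22089 in HP lactation livers on day 150, against 17654, 20780 and 17457 in HP lactation livers on day 21. The highest HP lactation array of day 150 for both genes was replicate 4, one of the arrays with Xist signal, and without it Cfi no longer passed (log2 change 0.23, limma adjusted p 0.204). Serping1 passed in all 6 fits that leave out 1 array (0.38 to 0.64) but not with the compared arrays alone (limma adjusted p 0.0638). C4bp, the C4b-binding protein, ran between 13440 and 22985 over all 18 arrays with no call.

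On the coagulation side the genes that fell were the proteases F7, F10, F11 and F12, the plasma protein Hrg and, in HP pregnancy livers, the plasmin inhibitor Serpinf2. F11 and F12 encode the contact factors XI and XII, F7 the factor that starts coagulation with tissue factor, and F10 the factor on which both routes converge. F11 read 830, 597 and 809 in HP pregnancy livers, 1135, 863 and 1193 in HP lactation livers and 1103, 1063 and 1783 in control livers on day 150, and 1834, 2488 and 2364 in HP pregnancy livers, 1980, 1705 and 2153 in HP lactation livers and 2840, 1913 and 1872 in control livers on day 21. The 2 days did not overlap in any diet for F11. It fell by 1.58, 0.88 and 0.76 log2 units in HP pregnancy, HP lactation and control livers, which is 3-, 1.84- and 1.7-fold lower (limma adjusted p 4.32e-05, 0.00517 and 0.0183). F10 read 6413, 6202 and 6786 in HP pregnancy livers, 8625, 7376 and 8032 in HP lactation livers and 8172, 8831 and 9174 in control livers on day 150, and 9544, 12395 and 12376 in HP pregnancy livers, 10491, 10996 and 11975 in HP lactation livers and 12503, 15785 and 12555 in control livers on day 21. The days did not overlap here either, and the changes in the same order of diets were -0.81 ± 0.12, -0.48 ± 0.12 and -0.63 ± 0.12 log2 units (limma adjusted p 0.000118, 0.00708 and 0.00146).

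F7, F12 and Hrg fell in HP pregnancy and control livers, and their changes in HP lactation livers did not pass. F7 read 2734, 3100 and 2863 in HP pregnancy livers, 4155, 3822 and 3832 in HP lactation livers and 3712, 3695 and 3338 in control livers on day 150, and 4423, 4605 and 4402 in HP pregnancy livers, 4098, 4227 and 4515 in HP lactation livers and 5149, 4976 and 4903 in control livers on day 21. The log2 changes of F7 were -0.63 ± 0.09, -0.12 ± 0.09 and -0.49 ± 0.09 in HP pregnancy, HP lactation and control livers (limma adjusted p 0.000118, 0.363 and 0.00159). F12 gave 6999, 7048 and 6714 in HP pregnancy livers, 13063, 8373 and 9199 in HP lactation livers and 8194, 10456 and 9470 in control livers on day 150. Its day 21 signals were 9480, 9391 and 9527 in HP pregnancy livers, 11169, 10419 and 9183 in HP lactation livers and 12298, 13368 and 11670 in control livers. The F12 changes were -0.45 ± 0.14, -0.03 ± 0.14 and -0.41 ± 0.14 (limma adjusted p 0.0225, 0.9 and 0.0432). Of 6 fits that leave out 1 array, the F12 call was kept in 1 in HP pregnancy (without day 21 replicate 1, adjusted p up to 0.0678 in the others) and in 1 in control livers (without day 150 replicate 2, up to 0.171). With arrays scaled to an equal 75th percentile neither F12 call passed (limma adjusted p 0.0757 and 0.0662), and with no filter or no trend the control call did not (0.0728 and 0.0708). Hrg, a histidine-rich plasma protein that binds heparin and plasminogen, read 10344, 11708 and 10884 in HP pregnancy livers, 19164, 13526 and 13750 in HP lactation livers and 13621, 15704 and 14891 in control livers on day 150. On day 21 the signals of Hrg were 18368, 16935 and 16572 in HP pregnancy livers, 17987, 18586 and 15248 in HP lactation livers and 21826, 22080 and 20277 in control livers. For Hrg the changes were -0.66 ± 0.12, -0.17 ± 0.12 and -0.54 ± 0.12 (limma adjusted p 0.000991, 0.327 and 0.00591). HP lactation replicate 4 was the highest day 150 array for all 3 genes. F7, F10 and Proz follow each other on chromosome 8 (chr8:13025506-13035809, chr8:13037308-13056676 and chr8:13060584-13076026, GRCm38.p6), and Proz, a cofactor for the inhibition of factor X, gave no call.

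Pros1 (protein S, a cofactor of activated protein C) was the one coagulation member that rose. It read 1691, 2327 and 1720 in HP pregnancy livers, 1914, 1850 and 1861 in HP lactation livers and 1873, 1751 and 1693 in control livers on day 150, and 1629, 1066 and 810 in HP pregnancy livers, 1562, 1405 and 1181 in HP lactation livers and 1126, 1082 and 1180 in control livers on day 21. The change was 0.76 ± 0.19 in HP pregnancy, 0.45 ± 0.19 in HP lactation and 0.65 ± 0.19 in control livers (limma adjusted p 0.00696, 0.0863 and 0.0223), and without the arrays with Xist signal the control value was 0.62 and did not pass (limma adjusted p 0.0744). Serpinf2, the inhibitor of plasmin, fell by 0.41 in HP pregnancy livers (limma adjusted p 0.0196). The 3 fibrinogen chains, encoded side by side on chromosome 3, had log2 changes of at most 0.42 with age in any diet, and none passed. Prothrombin (F2), factors V and IX, factor XIII B (F13b), prekallikrein (Klkb1), kininogen (Kng1), Plg, antithrombin (Serpinc1), heparin cofactor II (Serpind1), Proc, Proz and the adhesive protein vitronectin (Vtn) gave no call either.

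Several other calls with age near the threshold were lost in fits that leave out 1 array. In control livers C8b was lost without replicate 2 or 3 of day 21 or replicate 2 of day 150 (0.44 to 0.51), F11 without replicate 1 of day 21 or replicate 1 or 2 of day 150 (-0.65 to -0.57) and Pros1 without replicate 2 of day 21 or replicate 1 or 2 of day 150 (0.61 to 0.66). In HP pregnancy livers C8g was lost without replicate 2 or 3 of day 21 or of day 150 (0.43 to 0.48), Serpinf2 without replicate 2 or 3 of day 21 or replicate 3 of day 150 (-0.42 to -0.33) and Pros1 without replicate 3 of day 21 (0.52). In HP lactation livers Cfb was lost without replicate 1 or 2 of day 21 or replicate 5 or 6 of day 150 (-0.54 to -0.36), Masp1 without replicate 1 or 2 of day 21 or replicate 4 or 6 of day 150 (0.40 to 0.54) and Cfi without replicate 1 or 3 of day 21 or replicate 4 of day 150 (0.23 to 0.38). Over these fits the limma adjusted p reached 0.204 at most, and no direction turned. Some of these calls were also lost under other settings. An equal 75th percentile lost Cfb in HP lactation and Serpinf2 in HP pregnancy livers (limma adjusted p 0.0832 and 0.087). In HP lactation livers Cfb, Masp1 and Cfi were lost without trend (0.05, 0.0585 and 0.0657), and Cfb and Cfi with compared arrays alone (0.0657 and 0.149). With no filter Cfi and, in HP pregnancy livers, C8g were lost (0.0832 and 0.051).

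The regions upstream of 5 members are shown because C9, C8b and Mbl1 rose with age in HP lactation livers and differed between the HP diets on day 21, while F10 and Hrg fell with age in HP pregnancy and control livers. Each is the 250 bases before the annotated start in RefSeq (GRCm38.p6), on the plus strand, in lower case with any match to a searched motif in capitals. The windows are C9 at chr15:6445096-6445345, C8b at chr4:104766067-104766316, Mbl1 at chr14:41151206-41151455, F10 at chr8:13037058-13037307 and Hrg at chr16:22950822-22951071.
C9: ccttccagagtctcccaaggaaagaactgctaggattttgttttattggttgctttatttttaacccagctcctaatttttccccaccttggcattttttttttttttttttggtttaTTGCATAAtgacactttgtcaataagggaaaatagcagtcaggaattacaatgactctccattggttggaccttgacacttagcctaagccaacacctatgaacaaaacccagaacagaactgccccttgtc
C8b: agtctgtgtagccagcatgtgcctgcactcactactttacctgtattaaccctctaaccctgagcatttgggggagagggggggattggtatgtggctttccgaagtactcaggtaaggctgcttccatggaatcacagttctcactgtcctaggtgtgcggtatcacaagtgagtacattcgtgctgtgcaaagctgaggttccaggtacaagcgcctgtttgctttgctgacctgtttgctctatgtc
Mbl1: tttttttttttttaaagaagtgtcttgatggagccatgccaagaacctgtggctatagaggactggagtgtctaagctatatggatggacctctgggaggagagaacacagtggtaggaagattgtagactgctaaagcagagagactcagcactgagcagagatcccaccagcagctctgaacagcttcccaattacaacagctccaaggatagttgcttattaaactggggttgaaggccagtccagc
F10: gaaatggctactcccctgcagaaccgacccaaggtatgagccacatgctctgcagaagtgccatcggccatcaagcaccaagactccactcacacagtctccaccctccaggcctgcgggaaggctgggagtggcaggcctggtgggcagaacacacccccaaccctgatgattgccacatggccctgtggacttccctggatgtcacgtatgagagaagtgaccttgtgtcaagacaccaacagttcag
Hrg: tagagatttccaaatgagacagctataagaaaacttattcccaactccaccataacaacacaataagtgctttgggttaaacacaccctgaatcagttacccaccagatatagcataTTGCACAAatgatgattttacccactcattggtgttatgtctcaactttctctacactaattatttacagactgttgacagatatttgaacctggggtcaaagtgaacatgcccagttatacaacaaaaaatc

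C9 and Hrg each hold 1 match to the C/EBP motif TTGCNNAA, which starts 132 bases before the start of C9 and 133 bases before that of Hrg. C9 rose and Hrg fell with age in control livers. C8b, Mbl1 and F10 hold no match to any of 5 motifs searched on both strands in these windows. Of 30 members with an entry in the RefSeq table, 8 held TTGCNNAA, which is 26.7%, against 9.56% of all 32851 promoters. Members were counted once per gene and all promoters once per entry, so the shares differ in unit. The 30 include C3, which is among the 8, and Cpb2, and these genes have no signal value here. A form of the HNF1 motif was in 3 members (Hc, C4bp and F13b, 10%, against 0.371% of promoters), the STAT motif TTCNNNGAA in 6 (20%, against 7.02%), the FOXA motif TGTTTAC in 2 (6.67%, against 3.17%) and the HNF4 motif CAAAGTCCA in 0 of 30 (against 0.384%). These are counts of letters in a window and not of bound sites, and neighbouring genes such as Fga and Fgb are not independent entries.

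Some other genes of the pathways were called with age as well. Of 19 further complement genes tested, 4 rose and 2 fell in HP pregnancy, 5 rose and 2 fell in HP lactation and 4 rose and 1 fell in control livers. Besides C6, the risers in all 3 diets were C1s1 (a protease of the C1 complex), Cfhr2 (a factor H relative) and Cd59a (which blocks pore assembly), and Cr1l, which encodes a complement regulator, fell in all 3. Of 20 further coagulation genes tested, 2 rose and 6 fell in HP pregnancy, 3 rose and 6 fell in HP lactation and 2 rose and 5 fell in control livers. Over all genes, 12.1% were called higher and 11.5% lower in HP pregnancy livers. The shares were 14.1% and 11.6% in HP lactation and 9.7% and 8.08% in control livers. Several of the counts of further complement and coagulation genes lie near those shares. F8 (factor VIII) rose in all 3 diets, while Tfpi (tissue factor pathway inhibitor), Habp2, Hgfac, Anxa2 and Asgr2 fell in all 3. Among 8 genes of the vitamin K cycle and factor export, Nqo1 fell in all 3 diets. Ggcx, the enzyme that carboxylates factors II, VII, IX and X, fell by 0.56 in HP pregnancy livers (limma adjusted p 0.0441). Hnf4a, a nuclear receptor of hepatocytes, rose by 0.52, 0.49 and 0.43 in HP pregnancy, HP lactation and control livers, and Nr1i3 (CAR) fell by 0.76, 0.65 and 0.81 log2 units. Cebpa rose by 0.68 in HP pregnancy and 0.90 in HP lactation livers (limma adjusted p 0.00161 and 0.00012).

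Markers of other liver cells differed between the days too. The summed signal of 8 Kupffer cell markers was 19860 to 21376 on day 150 against 13248 to 17671 on day 21 in HP pregnancy, 14734 to 22367 against 9902 to 14135 in HP lactation and 16206 to 22004 against 11757 to 13494 in control livers. That of 8 stellate cell markers was 16920 to 21961 against 27787 to 27891, 15731 to 17147 against 22393 to 27376 and 15316 to 23989 against 24573 to 33183 in the same order of diets. Within the Kupffer list Clec4f and Cd5l rose in all 3 diets and Adgre1 and Csf1r in HP lactation livers, while Marco fell by 0.96 in HP pregnancy and 1.29 in HP lactation livers (limma adjusted p 0.0414 and 0.00807). Of the stellate markers Dcn, Col3a1 and Pdgfrb fell in all 3 diets and Col1a1 in control livers. The 6 B and plasma cell markers measured, 5 of them above the filter, summed to 1181 to 1702 on day 150 against 508 to 641 on day 21 in HP pregnancy, 1154 to 1315 against 254 to 392 in HP lactation and 691 to 1053 against 419 to 477 in control livers. Among them Jchain, the joining chain of secreted antibodies, rose by 2.82, 3.35 and 2.44 log2 units (limma adjusted p 5.71e-06, 5e-07 and 3.68e-05), and Ighm by 2.49 in HP lactation livers (limma adjusted p 0.00286). Of 8 sinusoidal endothelial markers Lyve1 fell in all 3 diets and Clec4g rose in HP lactation livers, and of 3 erythroid markers above the filter Alas2 rose in both HP diets and Klf1 fell in control livers. Hepatocyte markers showed no such gap: their sum was 238007 to 387558 on day 150 and 201602 to 301688 on day 21. The part of these cells in the changes of the members was not tested, and in whole liver fewer cells of a type and less RNA per cell cannot be told apart.

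On day 21 most members read lower in either HP group than in control livers, and none passed the threshold. Between HP lactation and control livers, 34 of 36 members were below 0 on the log2 scale and in 21 every HP lactation array lay below every control array, against 49.4% of all genes below 0 and 8.71% with such a gap. The hepatocyte markers Alb, Apoa1, Apob, Ttr, Ahsg, Apoh and Rbp4 had the same gap (-0.40 to -0.29), while Cps1 overlapped (-0.12). The call rate over all genes was 0.172%, and the lowest adjusted p of a member was 0.0599, with 16 members and 1578 of all genes at an unadjusted p under 0.05. The median change was -0.32 for complement and -0.27 for coagulation genes. The brightest 10% of genes shifted the same way by -0.21, and after quantile normalization, which gives all arrays 1 distribution of signal, the medians were -0.18 and -0.03. On that scale the brightest 10% was at -0.03. The summed hepatocyte markers did not overlap on that day (201602 to 253635 in HP lactation against 269559 to 301688 in control livers). Nor did the summed endothelial markers (10988 to 12132 against 12374 to 14159), B and plasma cell markers (254 to 392 against 419 to 477) or erythroid markers (2197 to 2402 against 1424 to 1827). The part of these cells in these values was not tested. Of the 3 erythroid markers above the filter, Tfrc was at 0.73 and Alas2 and Klf1 at -0.10 and -0.19, and none passed.

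The 5 members with the smallest p in HP lactation livers of day 21 were Proc, C8g, C9, C8b and Mbl1. Proc (protein C, the vitamin K-dependent protease that inactivates factors V and VIII) read 12414, 14129 and 11171 in HP lactation livers and 18288, 19436 and 16059 in control livers, a log2 change of -0.51 ± 0.11 (limma adjusted p 0.0599). No HP lactation array reached the lowest control array. The terminal genes, whose signals on day 21 are given above, had log2 changes of -0.66 ± 0.15 (C8g), -0.96 ± 0.24 (C9) and -0.63 ± 0.16 (C8b) and, for Mbl1, -0.58 ± 0.15 (limma adjusted p 0.0813, 0.111, 0.111 and 0.116). The median over the 5 terminal genes was -0.63, and all 5 were below 0. These same 5 members passed when HP lactation replicate 2, the highest of that group in all 5, was left out, and Proc alone passed without control replicate 3. After quantile normalization C8g passed (-0.43, limma adjusted p 0.0187), and with arrays scaled to an equal 75th percentile Proc did (-0.64, limma adjusted p 0.0408).

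Among the members, the lower values in HP pregnancy livers of day 21 were mainly those of coagulation genes. The median change was -0.26 for coagulation and -0.12 for complement genes, and 15 coagulation genes and 1 complement gene had every HP pregnancy array below every control array, against 7.74% of all genes with such a gap. The hepatocyte markers Apoa1, Apob, Ttr, Ahsg, Apoh and Rbp4 had the same gap (-0.34 to -0.23), while Alb and Cps1 overlapped (-0.29 and -0.21). No member passed, and no gene at all did (0% called, limma), with 11 members and 1100 of all genes at an unadjusted p under 0.05. After quantile normalization the medians were -0.04 and 0.08, and the brightest 10% of genes moved by -0.12 before it and 0.01 after it. Summed hepatocyte markers did not overlap (210868 to 255005 in HP pregnancy against 269559 to 301688 in control livers). Nor did those of B and plasma cells (508 to 641 against 419 to 477) or 5 biliary markers, 2 of them above the filter (189 to 276 against 288 to 390). The part of these cells in the values was not tested.

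The smallest p-values in that comparison were those of Proc, F12, Kng1, Vtn and Hrg. Proc read 14226, 13553 and 15066 in HP pregnancy livers and 18288, 19436 and 16059 in control livers, a change of -0.32 ± 0.11. Kng1, the kininogen that carries prekallikrein and releases bradykinin, read 29267, 26367 and 26977 in HP pregnancy livers and 36589, 33531 and 33017 in control livers, a change of -0.32 ± 0.12. Vtn, vitronectin, read 23469, 21383 and 24017 in HP pregnancy livers and 31293, 29452 and 26691 in control livers, a change of -0.34 ± 0.13. In these 3 genes the HP pregnancy arrays lay below all control arrays of that day. F12 and Hrg, with no overlap either, had changes of -0.39 ± 0.14 and -0.31 ± 0.12. The limma adjusted p-values were 0.325 (Proc), 0.366 (F12), 0.417 (Kng1), 0.418 (Vtn) and 0.432 (Hrg). Both HP groups were set against the same 3 control arrays, so their shared direction is not independent evidence.

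**Figure D4:**
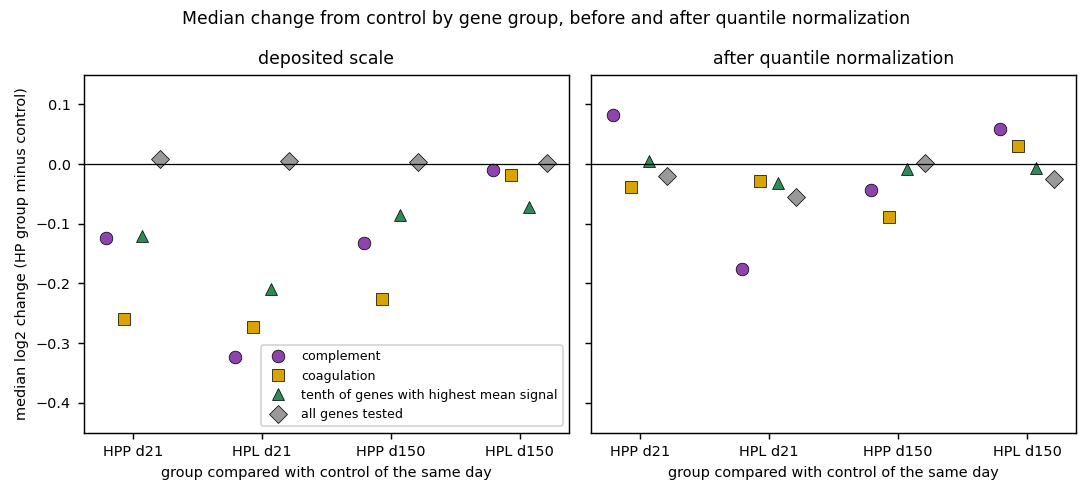
Median log2 change of complement genes, coagulation genes, the 10% of genes with the highest mean signal (triangles) and all genes, for each HP group minus control of the same day, on the deposited scale (left) and after quantile normalization (right). On day 21 the coagulation medians were -0.26 in HP pregnancy and -0.27 in HP lactation livers on the deposited scale, and -0.04 and -0.03 after quantile normalization.

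Set directly against each other on day 21, HP pregnancy livers had higher signals of terminal complement genes and Mbl1 than HP lactation livers. C8a, C8b, C9 and Mbl1 passed the threshold, all higher, against 1.28% of all genes called in either direction and 0.899% of all genes called higher, and no coagulation gene did. C9 differed by 1.06 ± 0.24 log2 units, 2.09-fold, C8a by 0.83 ± 0.17, C8b by 0.83 ± 0.16 and Mbl1 by 0.69 ± 0.15 (limma adjusted p 0.0327, 0.0225, 0.0175 and 0.03). In each of the 4 genes, and in C8g and Klkb1, every HP pregnancy array lay above every HP lactation array, which held for 6 of 36 members and 12.2% of all genes. C8g, the third chain of C8, differed by 0.55 ± 0.15 and did not pass (adjusted p 0.0839), and Hc differed by 0.18 ± 0.17 (adjusted p 0.659).

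These 4 calls depend on the arrays that enter. Without HP lactation replicate 1, the lowest array in all 4 genes, the differences were 0.75 for C9, 0.63 for C8a, 0.65 for C8b and 0.57 for Mbl1, and none passed (limma adjusted p 0.211, 0.139, 0.109 and 0.193). Without HP pregnancy replicate 2 or 3 none passed either, and without replicate 1 C8b alone did. After quantile normalization, where C8g passed as well, the 4 differences were 1.07 (C9), 0.84 (C8a), 0.82 (C8b) and 0.69 (Mbl1). Summed markers of other cells also differed on that day, though no single gene of these lists passed. The sums did not overlap for 8 endothelial markers (13731 to 16914 in HP pregnancy against 10988 to 12132 in HP lactation livers), 8 stellate markers (27787 to 27891 against 22393 to 27376) and 6 B and plasma cell markers (508 to 641 against 254 to 392). Those of the 8 Kupffer cell markers overlapped (13248 to 17671 against 9902 to 14135), with Marco at -0.38 and Cd68 at -0.34 and the other 6 above 0. The part of these cells in the difference was not tested.

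On day 150, long after both diets had ended, the signal of Cfb was lower in HP pregnancy than in control livers. Cfb was the only member called, with 3671, 4009 and 3314 in HP pregnancy livers and 6618, 5967 and 5125 in control livers, a change of -0.68 ± 0.17 log2 units or 1.61-fold lower (limma adjusted p 0.0416). Of all genes tested 2.63% were called in either direction and 1.11% were called lower. Leaving out any 1 of the 6 HP pregnancy and control arrays, no member passed, and Cfb passed under 5 of 11 other settings. After quantile normalization Cfb and Hrg passed. The actin 3'/5' ratio was 6.07, 6.50 and 6.25 in HP pregnancy and 4.13, 6.38 and 4.06 in control livers of day 150. That of Gapdh was 1.77, 1.67 and 1.80 against 1.30, 1.79 and 1.35. With the Gapdh ratio as a covariate the Cfb change was -0.60 and did not pass (limma adjusted p 0.213). The arrays with Xist signal are not in this comparison but enter the estimate of spread. When they were left out, 6 members passed, among them F11, F10 and Hrg (limma adjusted p 0.0448, 0.0307 and 0.0221). The 2.63% above belongs to the fit of all arrays, and the share of all genes called in this other fit is not given here. A general rise in calls therefore cannot be told from one in the members. The summed B and plasma cell markers were 1181 to 1702 in HP pregnancy and 691 to 1053 in control livers of day 150 and the summed erythroid markers 2649 to 2996 and 1334 to 2197, and their part in these differences was not tested. Of the 3 erythroid markers above the filter, Alas2 and Tfrc were at 0.86 and 0.50 and Klf1 at -0.35, and none passed.

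The next 4 members by p were F11, F10, Hrg and F7, all lower in HP pregnancy livers of day 150. The changes were -0.79 ± 0.21 for F11, -0.43 ± 0.12 for F10, -0.42 ± 0.12 for Hrg and -0.31 ± 0.09 for F7 (limma adjusted p 0.0503, 0.0598, 0.0689 and 0.0798). All 4 also fell with age in HP pregnancy livers. In each of the 4, every HP pregnancy array of day 150 lay below every control array of that day. Over all members that held for 12 of 36, against 12.9% of all genes, and the reverse for Proz, against 15.1%. The median change was -0.13 for complement and -0.23 for coagulation genes, and -0.04 and -0.09 after quantile normalization.

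HP lactation livers of day 150 were close to control livers in these genes. The medians were -0.01 for complement and -0.02 for coagulation genes, no member passed, and 0 members were at an unadjusted p under 0.05, against 851 of all genes, of which 0.00908% were called by limma. The smallest p-values belonged to Serpind1, F13b, Mbl2, F7 and Masp1. Serpind1 read 13212, 10082 and 12016 in HP lactation livers and 12857, 13965 and 14229 in control livers, a change of -0.22 ± 0.11. F13b read 11748, 10538 and 11574 in HP lactation livers and 11998, 12222 and 14710 in control livers, a change of -0.20 ± 0.10. Mbl2, the second mannose-binding lectin, read 22072, 17997 and 18845 in HP lactation livers and 19360, 24890 and 25394 in control livers, a change of -0.24 ± 0.13. The 2 groups overlapped in Mbl2. The change of F7 was 0.14 ± 0.09, with every HP lactation array above every control array, as in 7.42% of all genes, and F13b and Proc had the reverse, as in 6.28%. Masp1 read 5505, 4689 and 5080 in HP lactation livers and 4068, 4743 and 4114 in control livers, a change of 0.24 ± 0.17, and the limma adjusted p-values of the 5 ran between 0.641 and 0.769. Over the 36 members the 95% intervals of the change lay between -0.72 and 0.60 log2 units, so changes of that size are not shown to be absent. Without HP lactation replicate 4 the medians were -0.18 and -0.16, so their closeness to 0 rests on that array, the highest of all day 150 arrays in Fga, Fgb, Fgg, F12 and Hrg.

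Between the HP groups on day 150, F7 was lower in HP pregnancy livers, at 2734, 3100 and 2863, against 4155, 3822 and 3832 in HP lactation livers. The difference was -0.44 ± 0.09 log2 units or 1.36-fold (limma adjusted p 0.0385), and F7 was the 1 member called, against 0.717% of all genes called in either direction and 0.445% called lower. F12, Hrg, Kng1 and Cfb followed with -0.53 ± 0.14, -0.48 ± 0.12, -0.34 ± 0.12 and -0.47 ± 0.17 (limma adjusted p 0.0716, 0.073, 0.152 and 0.158). Kng1 read 25113, 27838 and 24835 in HP pregnancy livers and 39437, 27847 and 32102 in HP lactation livers. In F12 and Hrg the arrays did not overlap, and in 9 members in all the HP pregnancy arrays were the lower ones, against 10.8% of all genes. Leaving out HP lactation replicate 5, F12 and Hrg passed as well (limma adjusted p 0.0266 and 0.0382), and leaving out any other array of these groups no member did. Without the arrays with Xist signal F7 differed by -0.40 and did not pass (limma adjusted p 0.151). F7 passed under 3 of 10 other settings. Outside the member list, C1ra, a protease of the C1 complex, differed by -0.64 and Stat3, a transcription factor of the acute phase response, by -0.76, both lower in HP pregnancy livers (limma adjusted p 0.0456 and 0.0406).

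**Figure D5:**
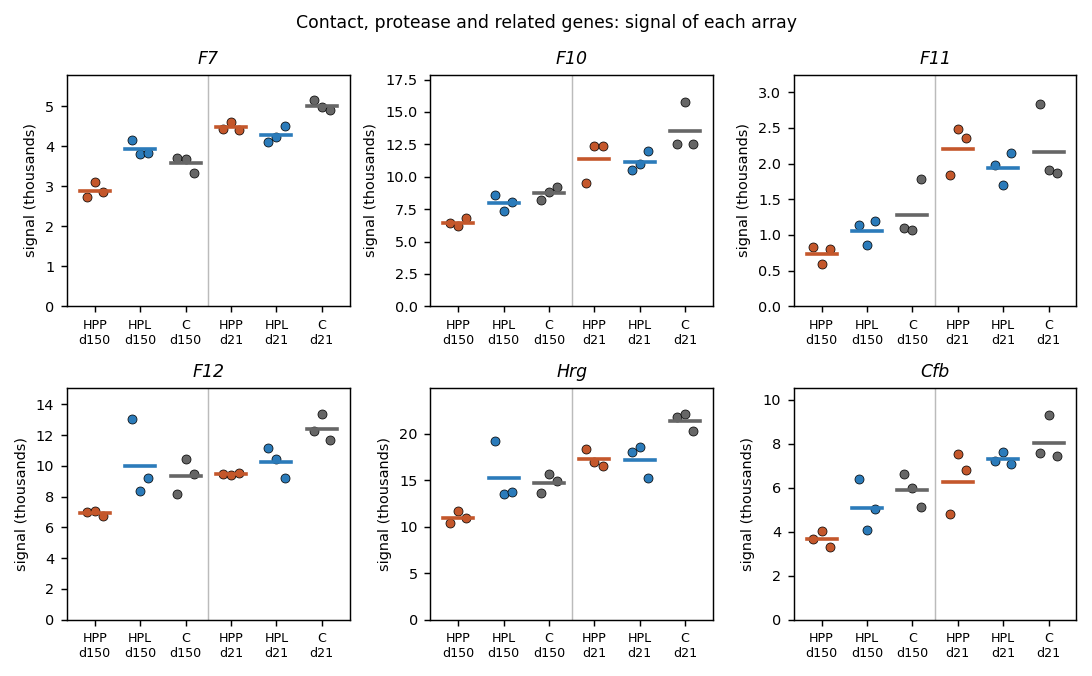
Signal of each array, on axes that start at 0, for F7, F10, F11, F12, Hrg and Cfb by diet and day, with group means as bars. HP pregnancy livers of day 150 are the lowest group in each panel, with F7 at 2734, 3100 and 2863.

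Whether a diet's difference changed between the days was tested directly. For HP pregnancy against control, the change of the difference (day 150 minus day 21) passed for no member, and 1 had an unadjusted p under 0.05, F11 at -0.82 ± 0.30 (limma adjusted p 0.999). For HP lactation against control no member passed and 8 had an unadjusted p under 0.05, among them C8g at 0.65 ± 0.21, C8b at 0.67 ± 0.23, F7 at 0.36 ± 0.13 and C9 at 0.90 ± 0.34 (each with a limma adjusted p of 0.929). For HP pregnancy minus HP lactation, a comparison added after the values were seen, no member passed and 10 had an unadjusted p under 0.05. C8b was at -0.97 ± 0.23, F7 at -0.51 ± 0.13, C9 at -1.08 ± 0.34, C8a at -0.75 ± 0.24 and Hrg at -0.48 ± 0.17 (limma adjusted p 0.17, 0.253, 0.433, 0.449 and 0.5). In each of the 3 tests 0.0182% of all genes were called. The day 21 difference in terminal complement between the HP diets is thus not shown to differ from that of day 150. Among the settings that leave out 1 array, C8b passed when HP lactation day 21 replicate 2 was left out (limma adjusted p 0.0449).

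Other probe sets bear on how far single genes can be read. There were 12 further probe sets above the filter for 8 members. For members called with age they had the same sign in 5 of 5 cases in HP pregnancy, 4 of 7 in HP lactation and 4 of 4 in control livers, and the 3 of opposite sign were those of Masp1. Among members without a call, Proz gave 0.35 in HP lactation livers on the set used and -0.41 on its other set (limma adjusted p 0.0577 and 0.0494).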

How the data were processed

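Total RNA of liver pools was hybridised to Affymetrix Mouse Genome 430 2.0 arrays, 3 for each of 6 groups of diet and day. The deposited values are MAS5 signal intensities on a linear scale, made by the authors with GCOS 1.4, per the submitters' processing notes; the 2% trimmed mean was 500.004 or 500.005 on every array. Of 45101 probe sets, 34945 had 1 gene symbol in the platform annotation, 932 several and 9160 none, and 64 were controls. Probe sets with a mean log2 signal (0 added) at or above the median of 5.85, a signal of 57.5, were kept, and the probe set with the highest mean stood for its gene, giving 11018 genes.

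Group means over all 18 arrays were fitted with limma 3.58.1 in R 4.3.3 (eBayes with trend, 12 residual and 6.47 prior degrees of freedom), with Benjamini-Hochberg adjustment over all genes and a threshold of 0.05, in 12 comparisons. The median standard error of a difference was 0.189 log2 units; 3 arrays a group limit the precision. The fit was tested on simulated data. Alternatives were other filters, scalings, an added value of 50, all probe sets, eBayes without trend, compared arrays alone, a replicate block, a Gapdh ratio covariate and arrays left out.

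The members and lists were chosen with earlier results of these data known, so no list was tested. Values of every array are given for members past the threshold in a diet comparison, or the 5 with the smallest p where fewer than 3 passed, and for the members with the largest changes with age. The difference of HP pregnancy minus HP lactation between days was added after the values were seen. Promoter letters are those of RefSeq (GRCm38.p6). Same-numbered arrays did not deviate together (r between -0.11 and 0.10 over 30 pairs, 1 of them over 0.1), so numbers were not taken as pairs. Figures were drawn with matplotlib 3.10.9.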

Additional observations from a re-analysis of the deposited data

Results flagged for a closer look

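F7 was the 1 member whose HP lactation arrays lay on opposite sides of control on the 2 days. On day 150 all 3 HP lactation arrays were above all 3 control arrays, a log2 change of 0.14, and on day 21 all 3 were below, a change of -0.23. Neither passed the threshold on its own. This comparison of directions is not a test. The change of the difference between the days was 0.36 log2 units (limma adjusted p 0.929, with a range of 0.577 to 0.997 over the 12 fits that leave out 1 array).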

How the results depend on the processing

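Quantile normalization moved medians on day 21 to 0.082 for complement and -0.038 for coagulation in HP pregnancy, and coagulation in HP lactation to -0.029. On day 150 it moved the HP pregnancy coagulation median to -0.0895, the HP lactation age median of coagulation to -0.031, and the coagulation medians of the change in diet difference to -0.13 (HP pregnancy) and 0.054 (HP lactation). It gave 1 called member in HP lactation on day 21, 2 in HP pregnancy on day 150, and 3 between the HP groups on day 150. An equal 75th percentile gave 1 in HP lactation on day 21 (coagulation median -0.40) and 0 in both day 150 comparisons with calls. With the brightest 10% of genes set to an equal median, coagulation was at -0.13 (HP pregnancy) and -0.068 (HP lactation, complement -0.12) on day 21, 0.043 for age and 0.095 for the change in difference of HP lactation, and calls on day 150 were 0.

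Without the arrays with Xist signal, HP lactation on day 150 had medians of -0.18 and -0.16, its age coagulation median was 0.0102, the change in its difference 0.069, the coagulation median between HP groups on day 150 -0.02 and the change in that difference -0.093. Calls of members were then 6 in HP pregnancy and 0 between HP groups on day 150, with no share of all genes given for that fit. Calls in HP pregnancy on day 150 were 0 with no filter, every probe set, no trend or the Gapdh covariate, and 3 with compared arrays alone. Between HP groups, day 150 calls were 0 with no filter, no trend, the covariate or compared arrays alone, and day 21 calls were 0 with no trend or compared arrays alone and 2 with the covariate. With that covariate, age calls were 0 in all diets, with complement and coagulation medians of -0.14 and -0.41 (HP pregnancy), 0.30 and -0.22 (HP lactation) and -0.0099 and -0.35 (control). C8g in HP pregnancy (-0.17) and Cfi in HP lactation (-0.0895) then reversed with age, and the complement change in difference of HP lactation was 0.19. The cause of these shifts was not tested.

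Replicate numbers did not pair the arrays. With a replicate block 2 members passed in HP pregnancy against control on day 150, Cfb and Hrg, and the block moved no other count of members or median beyond its limit. The HP lactation arrays of day 150 carry other numbers, so comparisons with them have no such fit.

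Leaving out 1 array at a time, called members ran from 0 to 5 in HP lactation and 0 to 0 in HP pregnancy on day 21 against control, 0 to 0 in HP pregnancy on day 150, 0 to 4 between the HP groups on day 21, 0 to 3 on day 150, 9 to 14, 10 to 15 and 8 to 10 for age in HP pregnancy (9 without day 21 replicate 3), HP lactation and control livers, and 0 to 1 for the change in the difference between HP groups. Medians ran from -0.18 to 0.0603 (complement) and -0.16 to 0.075 (coagulation) in HP lactation on day 150, from -0.27 to -0.02 for coagulation between HP groups on day 150, 0.0102 to 0.25 for its HP lactation age change, 0.19 to 0.44 and 0.089 to 0.31 for the change in HP lactation difference, and -0.30 to -0.093 for that between HP groups. The array left out at -0.18, -0.16, -0.02, 0.0102, 0.19, 0.089 and -0.093 was HP lactation day 150 replicate 4. Of the values of named members under an alternative, 1282 kept direction and side of the threshold, 147 lost a call, 20 gained one and 2 reversed.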
